A study of Homo sapiens with 2 samples.

Results

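Epithelial-to-mesenchymal transition (EMT) was followed through 10 genes, namely 5 transcription factors (SNAI1, SNAI2, TWIST1, ZEB1 and ZEB2), the mesenchymal markers VIM and CDH2, the epithelial markers CDH1 and EPCAM, and the epithelial splicing regulator ESRP1. They were picked by gene symbol from the 19607 genes of the expression table, and all 10 were found. The genes were chosen with their difference between the libraries already known, so the values of that comparison are a description and support no test. RNA was sequenced from CWR22Rv1, a human prostate cancer line, as 1 library of cells with genotype Akt1/2 knockout (Akt1/2 DKO) and 1 library of wild type cells (control). The knockout cells had received Cas9 with a guide against AKT1 and a guide against AKT2, were selected with puromycin and were isolated as monoclonal cells, so the library comes from a clonal line. The labels do not say which clone was sequenced, nor whether the control cells were transfected, selected or cloned. An effect of the knockout therefore cannot be told apart from a property of the clone.

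In EMT, epithelial cells loosen their junctions and take on a motile, mesenchymal form. SNAI1, SNAI2, ZEB1 and ZEB2 are zinc finger repressors that bind E-box sequences, with CDH1 as their best known target, and TWIST1 is a basic helix-loop-helix factor that acts in the same programme. Akt opposes the turnover of SNAI1 by inhibiting GSK3β, the kinase that marks SNAI1 protein for degradation. RNA levels do not report that step.

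The libraries held 9970825 reads (control) and 10718654 reads (Akt1/2 DKO), and each gene's reads were scaled by the TMM method to CPM, counts per 1000000 reads. AKT1 had 2645 reads in control and 591 in Akt1/2 DKO (4.96-fold lower), and AKT2 had 2362 and 667 reads (3.93-fold lower), in the direction of the labels. A gene was called higher or lower when it differed by at least 1.5-fold, over the 13318 genes with at least 10 reads in both libraries together. With 1 library per condition no difference has a replicate check, and the 95% intervals given here cover counting error only. Prostate markers were present in both libraries, but of 8 such markers 5 were lower and 1 was higher in Akt1/2 DKO, with a median log2 fold change of -1.72. KLK3 (184 to 29 reads), KLK2 (366 to 114), TMPRSS2 (219 to 53), STEAP2 (1482 to 353) and HOXB13 (2363 to 865) were lower, and FOXA1 (2511 to 3289) stayed under 1.5-fold. Their sum went from 1520 to 1900 CPM, and their part in the values of the epithelial genes was not tested. The 9 fibroblast markers summed to 143 and 159 reads, the 5 endothelial markers to 2 and 3, and the 6 leukocyte markers to 52 and 70, of which CD68 held 50 and 69. FAP, CDH5, CD3E, LYZ and ITGAM, markers of these 3 cell types, had no read in either library.

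Of the 10 EMT genes 8 had enough reads to be compared. Of these, 4 were higher in Akt1/2 DKO (SNAI1, TWIST1, CDH2 and EPCAM), 3 were lower (SNAI2, VIM and CDH1), and ESRP1 differed by less than 1.5-fold. Among all genes tested 30.9% were called, 15.9% higher and 15.0% lower, and nothing is read from the members' count against this share because the same comparison chose them. All 7 had counting intervals that left out no change, a stricter form that 27.0% of all genes tested met. At a 2-fold threshold, passed by 17.9% of all genes tested, 6 members remained, since CDH1 did not pass. At 8-fold, SNAI1, TWIST1 and CDH2 were still higher (2.43% of all genes) and SNAI2 and VIM lower (1.51%). ZEB1 and ZEB2 had no more than 1 read in either library. Each of the 3 roles with several members held both directions where it could be compared: the factors, the mesenchymal markers and the epithelial markers each had a gene that was higher and a gene that was lower.

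**Figure D1:**
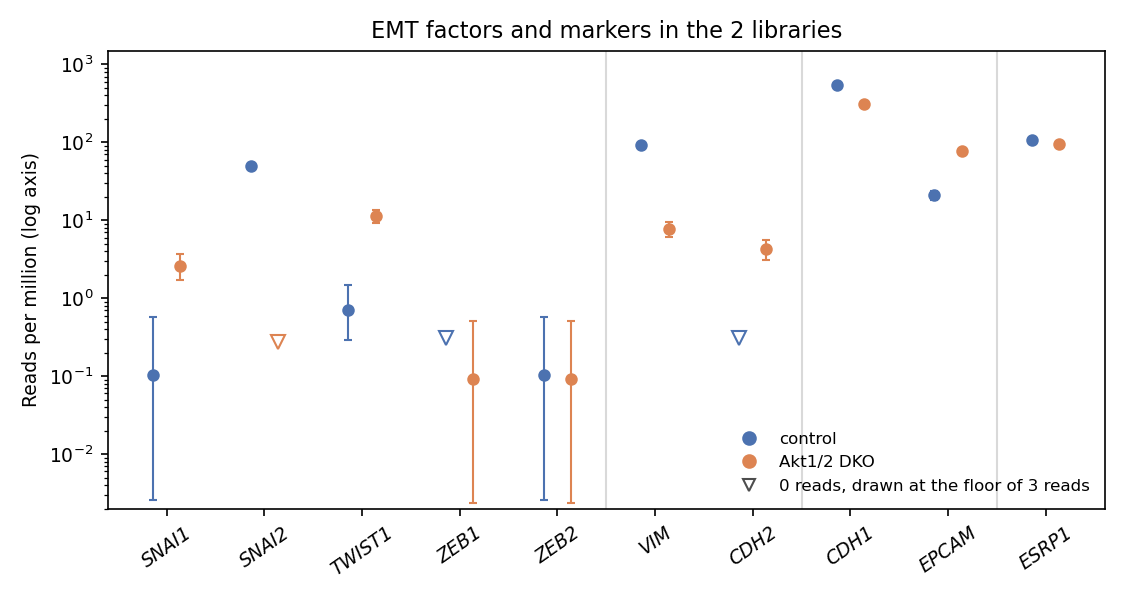
CPM (log axis) of the 10 EMT genes in control (blue) and Akt1/2 DKO (orange), 1 library each; bars are 95% Poisson intervals, and open triangles mark 0 reads, drawn at the floor of 3 reads. SNAI2, VIM and CDH1 stand higher in control, SNAI1, TWIST1, CDH2 and EPCAM stand higher in Akt1/2 DKO, and ZEB1 and ZEB2 lie near 0.1 CPM or at 0 reads in both.

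SNAI2 (Slug; ENSG00000019549, chromosome 8 from 48917604 to 48921740 on GRCh38) had 494 reads in control and 0 in Akt1/2 DKO. In FPKM, which scales for transcript length, this was 26.1 against 0. The control value corresponds to 50.3 CPM (95% interval 46.0 to 55.0), and 0 reads in Akt1/2 DKO have a 95% Poisson upper limit of 0.339 CPM. Against a floor of 3 reads (0.276 CPM) SNAI2 was at least 183-fold lower, and the 95% interval from the reads as counted gave a smaller limit, 148-fold. Only 12 of the 13318 genes tested, SNAI2 included, were lower by as much, with genes at 0 reads placed at the floor.

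SNAI1 (Snail; ENSG00000124216, chromosome 20 from 49982999 to 49988886) had 1 read in control and 28 in Akt1/2 DKO. The ratio was 25.3-fold, with a wide interval on the log2 scale from 2.06 to 10.01 because it rests on 1 control read, and with control set to 3 reads the log2 fold change was 3.07 in place of 4.66. TWIST1 (ENSG00000122691, chromosome 7 from 19020991 to 19117672) had 7 reads in control and 122 in Akt1/2 DKO, 15.7-fold higher (95% interval 7.4 to 39.9). SNAI1 and TWIST1 thus stood higher in the library in which SNAI2 was not detected. Reads of SNAI1 could be shared with its processed pseudogene SNAI1P1, and TWIST1 overlaps an antisense gene over 141 exon bases.

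ZEB1 (ENSG00000148516, chromosome 10 from 31318495 to 31529814) had 0 reads in control and 1 in Akt1/2 DKO, and ZEB2 (ENSG00000169554, chromosome 2 from 144364364 to 144524583) had 1 read in each. Both lay under the floor of 3 reads in both libraries, so no fold is given, and these libraries are too shallow to show whether either gene differed. Summed over the 5 factors, FPKM was 26.6 in control and 8.37 in Akt1/2 DKO. SNAI2 made up 98.1% of that sum in control, while TWIST1 made up 81.0% and SNAI1 18.4% in Akt1/2 DKO. Among these 5 factors the one with the most RNA per length was therefore SNAI2 in control and TWIST1 in Akt1/2 DKO. Other factors with a part in EMT stood higher in FPKM, among them TCF3 (40.3 in control and 48.1 in Akt1/2 DKO, under 1.5-fold).

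VIM (vimentin; ENSG00000026025, chromosome 10 from 17228259 to 17237593), the intermediate filament protein of mesenchymal cells, had 897 reads in control and 84 in Akt1/2 DKO. This was 11.8-fold lower (95% interval 9.46 to 15.0), from 48.9 to 4.17 FPKM. In bulk RNA fewer cells with a transcript and less transcript per cell cannot be told apart. The fibroblast markers, of which 3 of 9 had enough reads, summed to 14.6 CPM in each library but moved apart: COL3A1 was lower (74 to 9 reads), like VIM, while COL1A1 (55 to 106) and LUM (5 to 35) were higher. FAP had no read in either library, and the part of fibroblast RNA in the VIM value was not tested. VIM shares 641 exon bases with the antisense gene VIM-AS1, and the labels do not state whether the library kept strand.

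Promoter windows were matched only for ZEB1, ZEB2, VIM and CDH2, and that of VIM, the gene called lower among them, is shown. It lies wholly before the first annotated base of VIM. These are the 250 bases before the start of VIM in RefSeq (GRCh38.p14, plus strand, chr10:17227991-17228240). Capitals mark the GC box GGGCGG, a motif bound by SP1, whose first base lies 46 bases before the start.
VIM: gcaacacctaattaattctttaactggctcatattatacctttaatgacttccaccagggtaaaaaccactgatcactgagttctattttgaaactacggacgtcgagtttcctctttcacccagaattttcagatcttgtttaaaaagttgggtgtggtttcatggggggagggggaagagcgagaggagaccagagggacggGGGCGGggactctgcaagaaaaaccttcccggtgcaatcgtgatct
The letters GGGCGG or CCGCCC, 1 motif read on both strands, occur in 42.6% of 35116 promoter windows of this length. The E-box CANNTG, which reads the same on both strands, is not among these letters, while 61.8% of all windows hold it. The Snail and ZEB form of the E-box, CACCTG or CAGGTG on either strand, occurs in 17.5% of all windows and was found in 0 of 2 windows of CDH2, 0 of 1 of ZEB2 and 2 of 7 of ZEB1. The FOXO motif GTAAACA or TGTTTAC, in 2.98% of all windows, was found in none of the windows of these 4 genes.

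CDH2 (N-cadherin; ENSG00000170558, chromosome 18 from 27950966 to 28177446), the cadherin typical of mesenchymal and neural cells, had 0 reads in control and 46 in Akt1/2 DKO. It was at least 13.8-fold higher against the floor of 3 reads, and the interval from the reads as counted began at 10.8-fold. Its level in Akt1/2 DKO was low, at 2.07 FPKM, and CDH1 stood 39.2 times above it per length in the same library. The cadherins and vimentin thus did not move as a group, since VIM was lower in the library in which CDH2 was detected.

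CDH1 (E-cadherin; ENSG00000039068, chromosome 16 from 68737225 to 68835548), which joins epithelial cells at adherens junctions, was the most abundant of the 10 genes in both libraries. It had 5349 reads in control and 3343 in Akt1/2 DKO, from 149 to 81.1 FPKM. This was 1.77-fold lower (95% interval 1.70 to 1.85), and 9.9% of all genes tested were lower by as much. CDH1 was thus lower in the library in which SNAI2 was not detected and SNAI1 and TWIST1 were higher. CDH1 ranked 512th in control and 1089th in Akt1/2 DKO among the 19607 genes by FPKM.

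EPCAM (ENSG00000119888, chromosome 2 from 47345158 to 47387601), an adhesion molecule of the epithelial surface, moved opposite to CDH1. It had 206 reads in control and 843 in Akt1/2 DKO, 3.69-fold higher (95% interval 3.17 to 4.32), from 11.9 to 45.5 FPKM. Per length, CDH1 stood 12.5 times above EPCAM in control and 1.78 times above it in Akt1/2 DKO. VIM stood 4.11 times above EPCAM in control, and in Akt1/2 DKO the same ratio was 0.0916.

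ESRP1 (ENSG00000104413, chromosome 8 from 94641074 to 94707466), which directs the epithelial choice of exons in genes such as FGFR2 and CD44, had 1047 reads in control and 1028 in Akt1/2 DKO. Its log2 fold change of -0.18 (95% interval -0.30 to -0.05) stayed under 1.5-fold throughout its counting interval. ESRP1 was the only one of the 8 genes compared that was not called.

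**Figure D2:**
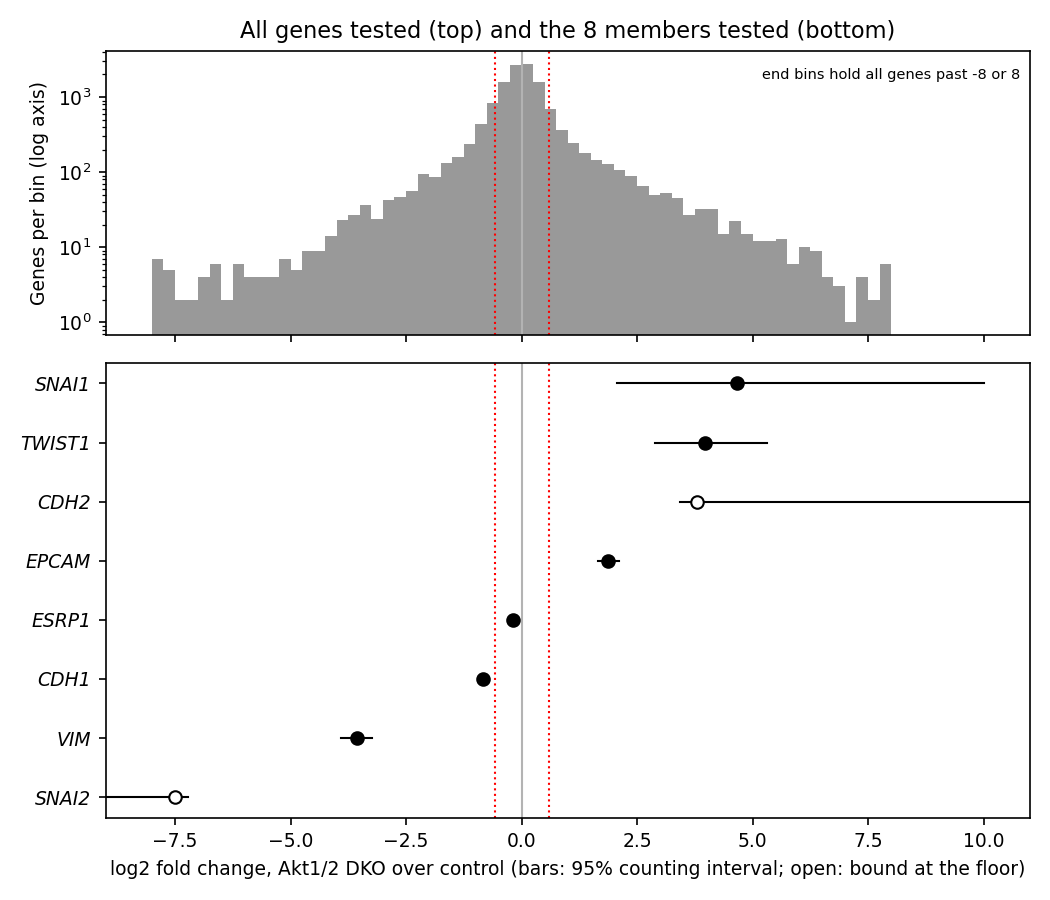
Top, number of genes (log axis) by log2 fold change of Akt1/2 DKO over control for the 13318 genes tested; bottom, the 8 EMT genes with 95% counting intervals, open circles for bounds at the floor of 3 reads, lines running off the edge where an interval has no limit, and dotted lines at 1.5-fold. The members run from -7.51 for SNAI2 to 4.66 for SNAI1, and only ESRP1, at -0.18, lies between the dotted lines.

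By FPKM the order in control was CDH1, VIM, ESRP1, SNAI2 and EPCAM, each apart from the next by more than its counting interval. TWIST1 (0.42), SNAI1 (0.06), ZEB2 (0.02), CDH2 and ZEB1 (both listed at 0) followed, and within this lower set neighbours overlapped. In Akt1/2 DKO the order was CDH1, EPCAM, ESRP1, TWIST1, VIM, CDH2, SNAI1, ZEB1, ZEB2 and SNAI2. There CDH2 (2.07) and SNAI1 (1.54) overlapped, as did ZEB1 and ZEB2, and the other neighbours down to SNAI1 did not. EPCAM passed SNAI2, ESRP1 and VIM between the libraries, and VIM passed from above ESRP1 to below TWIST1.

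The genes nearest to SNAI2 in pattern, by Euclidean distance in log2(CPM + 1) over the 2 libraries, were TSPAN2 (494 and 0 reads, distance 0), PHLDB2 (522 and 1 reads, 0.149) and PTGFR (565 and 1 reads, 0.229). TSPAN2 encodes a tetraspanin and PTGFR the prostaglandin F receptor. With 2 libraries this likeness says only that their levels were close in each.

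To set the members in context, 8 lists of genes that act with or beside the EMT factors were described, 124 genes in all. Of the 104 with enough reads 24 were higher and 21 lower in Akt1/2 DKO. That is 43.3%, against 30.9% of all genes tested, and the lists were written with earlier results of these data known.

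Among 17 epithelial junction genes 3 were higher, 2 were lower and 12 differed by less than 1.5-fold. The share called was 29.4%, against 30.9% of all genes tested. Their median log2 fold change was 0.22, against 0.006 over all genes tested. The tight junction claudins CLDN3 (84 to 515 reads, 5.53-fold) and CLDN4 (595 to 3140 reads, 4.76-fold) were higher in Akt1/2 DKO. The desmosomal protein DSP (2125 to 1187 reads, 1.98-fold) and β-catenin, CTNNB1 (6885 to 4266 reads, 1.79-fold), were lower, as was CDH1, to which β-catenin binds. The other catenins in the list, CTNNA1 (log2 fold change 0.41), CTNND1 (-0.06) and JUP (0.39), stayed under the threshold.

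Among 18 other epithelial identity genes 15 could be compared, of which 4 were higher and 2 lower (median log2 fold change 0.33). That is 40.0% called, against 30.9% of all genes tested. OVOL1, a factor that opposes EMT, rose from 70 to 285 reads (3.67-fold), and KRT18, a luminal keratin, from 2433 to 5306 reads (1.97-fold). KRT19 was lower (1966 to 166 reads, 13.1-fold), as was PRSS8 (186 to 67 reads, 3.08-fold), an epithelial membrane protease. Keratin reads can be shared with processed pseudogenes.

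Among 22 other mesenchymal markers only 13 had enough reads, and of these 6 were higher and 5 lower in Akt1/2 DKO (median 0.05). Over all genes tested 2120 were called higher and 1997 lower, so both directions were about as common there too. The share called was 84.6% in this list against 30.9% of all genes tested, and the list was written with earlier results known. ACTA2 (41 and 28 reads), among those lower, had a counting interval that included no change. CD44, a hyaluronan receptor, rose from 21 to 542 reads (23.3-fold, 95% interval on the log2 scale 3.91 to 5.24). In FPKM CD44 went from 1.86 to 23.0, a smaller rise than in reads. TNC, a matrix glycoprotein, rose from 104 to 479 reads (4.15-fold). MMP14, a membrane-bound matrix protease, fell from 140 to 10 reads (15.5-fold), and TAGLN, an actin-binding protein, from 216 to 42 reads (5.7-fold). MMP2 and AXL had no read in either library, and FN1 had 184 and 146 reads, under the threshold.

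Among 17 other EMT transcription factors 10 could be compared, of which 4 were higher and 2 lower (median 0.28). That is 60.0% called, against 30.9% of all genes tested, and the list was written with earlier results known. TCF4, an E protein that pairs with TWIST1, had 88 reads in control and 177 in Akt1/2 DKO (1.81-fold higher), and SOX9 had 135 and 262 (1.75-fold higher). TWIST2, PRRX1, FOXQ1 and ETS1 had no read in either library.

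Genes that act on the factors were grouped as corepressors, turnover genes and inducers. Of 14 corepressors 2 were higher and 1 lower, or 21.4% called against 30.9% of all genes tested. CTBP2 stood at 292 and 694 reads (2.14-fold higher), SUV39H1 at 48 and 87 (1.63-fold higher) and LIMD1 at 2298 and 1042 (2.45-fold lower). Of 11 genes for turnover of the factors 3 were lower and 0 higher, or 27.3% called against 30.9% of all genes tested. PAK1, a kinase that phosphorylates SNAI1, stood at 771 and 334 reads (2.56-fold lower) and GSK3B at 1715 and 1172 (1.62-fold lower). The other, USP27X (27 and 18 reads), had a counting interval that included no change. Of 15 inducers 14 could be compared, with 2 higher and 5 lower. EGR1 (571 to 167 reads, 3.79-fold) and the receptor TGFBR2 (120 to 40 reads, 3.33-fold) were lower, and the ligand TGFB3 (28 to 87 reads, 2.8-fold) was higher. Of 10 splicing regulators beside ESRP1, 3 were higher and 1 was lower, or 40.0% called against 30.9% of all genes tested. Among them MBNL2 (49 to 235 reads, 4.33-fold) and MBNL3 (112 to 206 reads, 1.66-fold) were higher and RBM47 (829 to 589 reads, 1.56-fold) was lower.

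**Figure D3:**
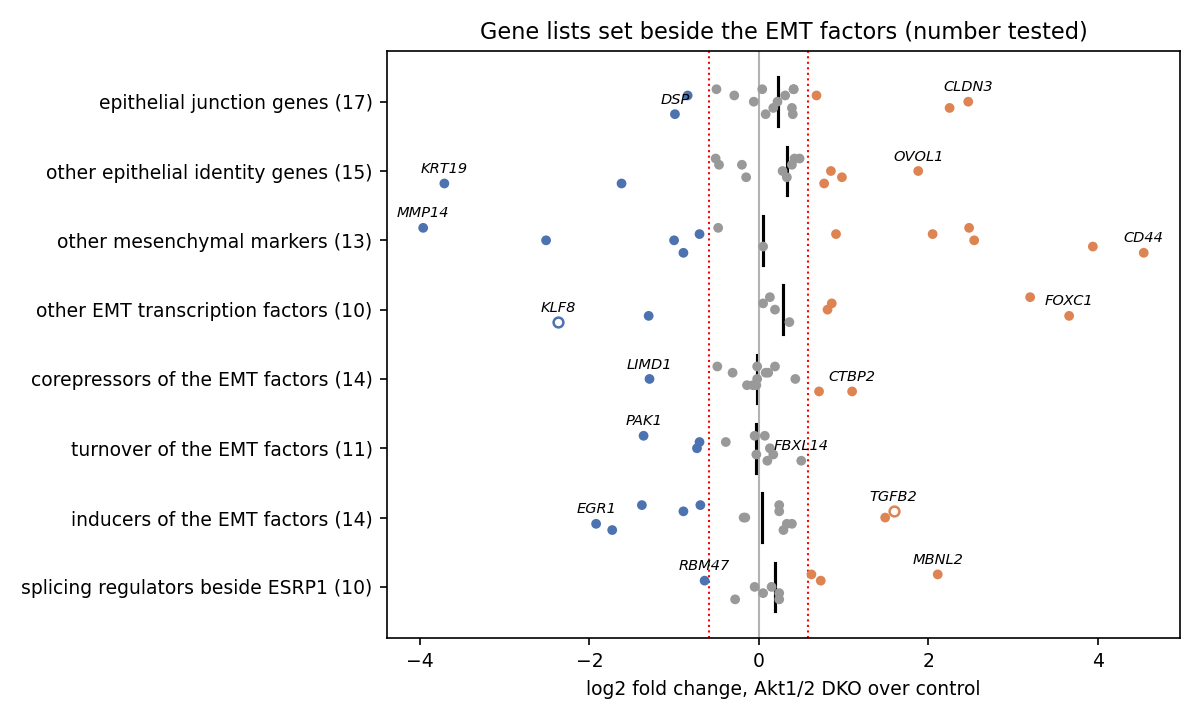
Log2 fold change of Akt1/2 DKO over control for each gene tested in the 8 lists; orange, higher; blue, lower; grey, under 1.5-fold (dotted lines); open, bound at the floor of 3 reads; black bars, list medians. The other mesenchymal markers spread from -3.96 (MMP14) to 4.54 (CD44), while corepressors lie between -1.29 and 1.10.

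The genes around each member were examined to see whether a stretch of the chromosome moved with it. Within 5 Mb of SNAI2 the median log2 fold change over 11 genes was -0.19. Its nearest tested neighbours were EFCAB1 (26 reads in control and 0 in Akt1/2 DKO, 186 kb away) and SNTG1 (0 and 11 reads), so 1 neighbour also lacked reads and the other did not. Around TWIST1 the 27 neighbours had a median of 0.69, and 14 of them were called higher and 3 lower, where 15.9% and 15.0% of all genes tested were. TWIST1 itself, at 3.97, lay above their upper quartile of 1.73, and the part of its neighbours' difference in its value was not tested. Around ESRP1 the 40 neighbours had a median of -0.29, close to its own -0.18.

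For CDH1, EPCAM, SNAI1, VIM and CDH2 the medians of the neighbours lay between -0.08 and 0.23, under the 1.5-fold threshold. Within 2 Mb the median for CDH2 was 0.61 over 3 genes, past that threshold, and the median for VIM was -0.14 over 10 genes, of the opposite sign. CDH3 encodes P-cadherin and starts 101 kb from CDH1. It had 335 reads in control and 490 in Akt1/2 DKO (log2 fold change 0.40), opposite in sign to CDH1. In FPKM CDH3 went from 13.5 to 12.6, so its direction depends on the measure. CALM2, a neighbour of EPCAM, had a log2 fold change of -0.08. TRDMT1, 26.2 kb from VIM, had 122 and 90 reads (-0.59). The nearest tested neighbours of CDH2 were CHST9 (0 and 12 reads, 992 kb away) and DSC2 (44 and 143 reads, 2930 kb away). They lie on either side of CDH2, and both were higher in Akt1/2 DKO, CHST9 against the floor of 3 reads.

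**Figure D4:**
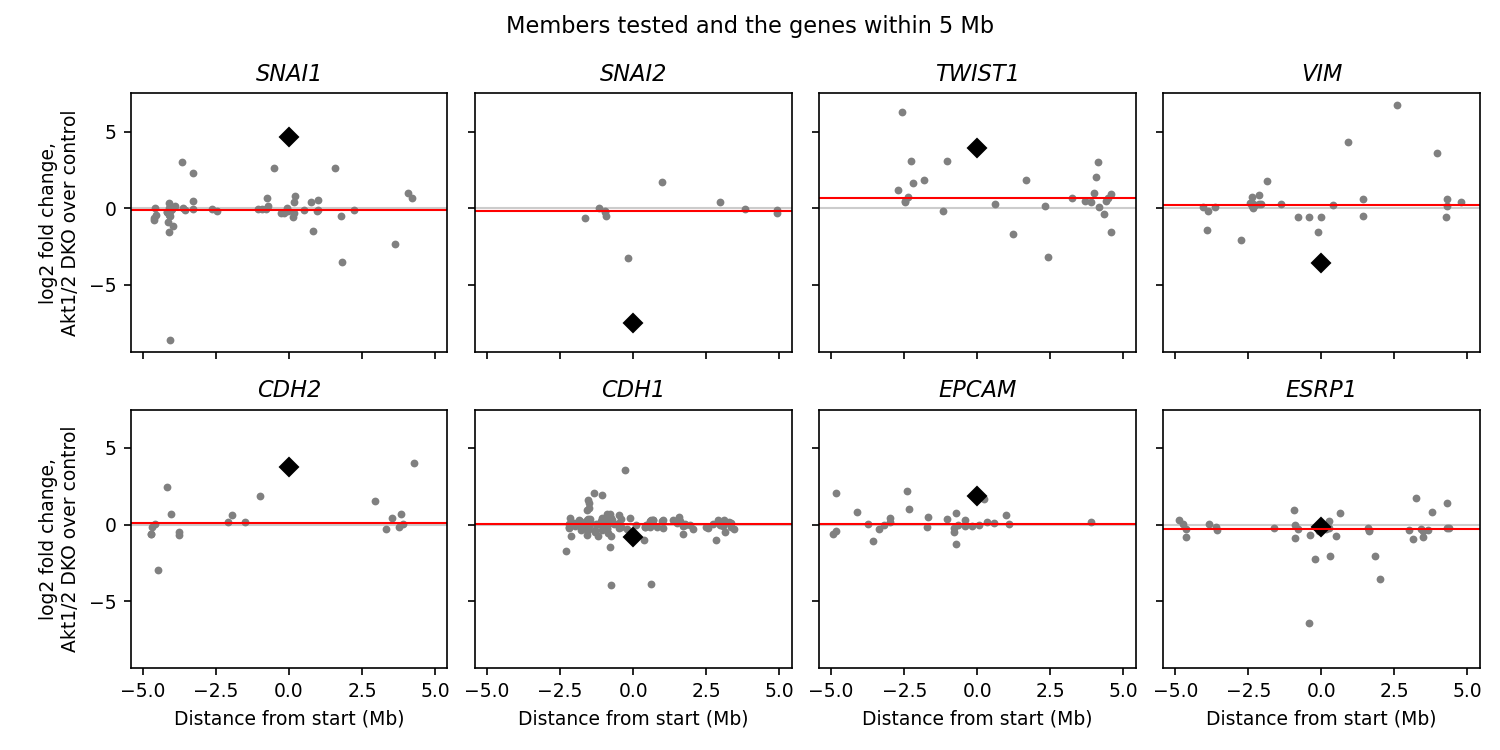
Log2 fold change of Akt1/2 DKO over control against distance from the member's start (Mb) for genes tested within 5 Mb (grey points), with the member as a black diamond and the neighbours' median as a red line. The median line lies between -0.19 and 0.23 except for TWIST1 (0.69) and ESRP1 (-0.29).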

How the data were processed

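RNA sequencing of 1 control and 1 Akt1/2 DKO library was analysed from the deposited gene table. Per gene, the deposited table gives estimated counts of reads, without normalization. FPKM values, scaled by the authors for length and depth, stand beside them. The submitters' processing notes name fastp 0.20.0, TopHat, Cufflinks, edgeR and genome build GRCh38.p10. The counting tool and strand setting are not given in the sources used here. The authors' own comparison (fold change, p-value, FDR and marked genes), their correlation and their ontology summary were not used.

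Estimated counts were rounded, and 2173 genes had a value that was not whole, which can arise from reads shared between genes. TMM scaling (edgeR 4.0.16, R 4.3.3) over the 13318 genes with at least 10 reads in both libraries together gave an effective library size 1.11 times as large in Akt1/2 DKO as in control. Intervals for ratios are exact (Clopper-Pearson, 95%, scipy 1.17.1, Python 3.11.15), intervals for levels are exact Poisson. They cover counting error only. A library at 0 reads was set to the floor of 3 reads (0.306 CPM in control, 0.276 in Akt1/2 DKO), and 1 to 3 reads were taken as counted. FPKM was used to compare genes with each other. With 1 library per group no test was possible and no p-value is given.

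Positions are those of GENCODE release 29 (GRCh38), which held 19571 of the 19607 identifiers, and promoter windows are from RefSeq. RefSeq windows were matched for 4 of the 10 members. The members and gene lists were chosen with earlier results of these data known. Besides the members, AKT1 and AKT2, the genes named are the 2 largest rises and 2 largest falls per list among called genes with at least 100 reads in both libraries together, and the 3 genes nearest to SNAI2 in pattern. Other genes named were chosen after their values were seen. The alternatives were 3 other scalings, FPKM with pseudocounts of 0.1 and 1, 2 other read filters, a 2-fold threshold, a threshold that also asks for an interval without 1, a 2 Mb window and, added after seeing the data, a floor of 3 reads for any library under it. The scaling, fold and interval steps were run on simulated counts with Poisson error only, which does not cover variation between cultures or clones.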

Additional observations from a re-analysis of the deposited data

How the results depend on the processing

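The 7 members called under the main settings stayed at 7, with 4 higher and 3 lower, under total count, DESeq2 1.42.0 and upper-quartile scaling, both FPKM forms, no read filter, the interval criterion and the added floor. A 2-fold threshold left 6, without CDH1, and at least 50 reads in both libraries together left 5, since SNAI1 and CDH2 have fewer reads. No member's sign reversed. With a pseudocount of 1 on FPKM, which shrinks low values, the log2 fold changes were 1.26 for SNAI1, -4.76 for SNAI2, 2.45 for TWIST1 and 1.62 for CDH2, outside their counting intervals. With the added floor SNAI1 stood at 3.07. The 2-fold threshold left 2390 of 4117 genes overall and 25 of 45 in the 8 lists. Medians of the neighbours within 2 Mb stayed inside the quartiles found within 5 Mb, though that of CDH2 rose from 0.10 to 0.61 and that of VIM turned from 0.23 to -0.14. Depth limits ZEB1, ZEB2 and SNAI1. No paired analysis was possible because there is only 1 library a group.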

Other observations

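Values outside the comparisons above were looked up after the data had been seen, so they are descriptions. VIM belongs to the intermediate filaments, and among 12 such genes other than keratins 7 had enough reads. PRPH, a neuronal filament protein of the same class as VIM, rose from 27 to 551 reads in Akt1/2 DKO (log2 fold change 4.20), and NES, the filament protein of progenitor cells, from 321 to 682 (0.94). NEFH, the heavy neurofilament subunit, fell from 1442 to 91 reads (-4.13). The nuclear lamins LMNA, LMNB1 and LMNB2 lay between -0.27 and 0.13, and DES and INA had no read in either library.

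Of 5 genes whose exons are known to be under ESRP control, CD44 was higher, while CTNND1 (-0.06), ENAH (0.31) and ARHGEF11 (0.31) stayed under 1.5-fold and FGFR2 had no read in either library. These are totals per gene and do not show which exons were used. Of the 7 desmosomal cadherins, encoded in a cluster near CDH2 on chromosome 18, DSC2 was higher (1.55), DSG2 was not called (-0.31), DSC1 had 1 read in each library, and the other 4 had none.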
